A study of Mus musculus with 8 samples.

Results

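The chemokine system was described here in group 2 innate lymphoid cells (ILC2s) of visceral fat from mice on a high-fat or a normal diet. Members were the protein-coding genes of the expression table with a chemokine or chemokine receptor symbol and no value below 0. They were 55 of the 39527 genes in the table, 24 receptors and 31 ligands, and 2 further matching genes, Ccl21a and Ccl21b, were left out because they held values below 0. Members were picked by name and not by a measured difference between the diets, though earlier results of these data were known at the time.

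ILC2s, tissue lymphocytes that carry no antigen receptor and release type 2 cytokines, came by sorting from visceral adipose tissue (VAT), the epididymal depot, of C57BL/6 wild-type males. High-fat feeding for 8 weeks from the age of 6 weeks (libraries H1 to H4) was compared with normal diet over the same weeks (libraries N1 to N4), with cells taken at 14 weeks. The title of the series places it in work on the kinase LKB1 and mitochondria in these cells, and every library is labelled wild-type. The labels leave unsaid whether the 4 libraries per diet came from separate animals or from pools, and the p-values below therefore reflect only how far the libraries spread, which may be technical.

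Chemokines are small secreted proteins that steer leukocytes along a gradient, and are named CC, CXC, XC or CX3C after the spacing of their first cysteines. Their receptors span the membrane and signal mostly through inhibitory G proteins to integrins and the actin skeleton, whereas the atypical receptors (Ackr) bind chemokines without starting migration and so shape the gradient. In obese fat the best known pair is Ccl2 with Ccr2, which draws in monocytes.

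Levels are given as FPKM, which scale fragments to gene length and to sequencing depth. Whole reads recovered from these values numbered 9005363 to 15752815 per high-fat library, lowest in H2, and 12272413 to 15225871 per normal-diet library. All 13 listed ILC2 markers passed the filter below, and summed to 4916 to 5714 FPKM in the high-fat libraries and 6595 to 7834 FPKM in the normal-diet libraries. The members of this list did not move together. Il5, Gata3, Il2ra and Rora were lower in every high-fat library than in every normal-diet library. Il7r was higher, at 203 to 272 FPKM against 150 to 199.5 FPKM, and the rest overlapped between the diets. Markers of other cells were present too. The 8 mast cell and basophil markers summed to 1723 to 7868 FPKM on the high-fat diet, lowest in H2, and to 3761 to 8004 FPKM on the normal diet. The 12 T cell markers summed to 409 to 858 FPKM and 504 to 667 FPKM, the 9 endothelial markers to 27.6 to 51.8 FPKM and 17.5 to 23.1 FPKM, and the 10 stromal and adipocyte markers to 7.36 to 39.4 FPKM and 3.44 to 11.3 FPKM, high-fat diet before normal diet in each pair. In bulk RNA, fewer cells of a type and less RNA per cell cannot be told apart.

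On the high-fat diet, 3 receptors changed among the 14 that passed a filter (at least 4 libraries of 8 reaching 1 FPKM): Xcr1 and Cxcr6 fell and Ccr1 rose (limma on log2(FPKM + 1), Benjamini-Hochberg adjusted p under 0.05 over 11483 genes). Of the 16 ligands that passed, Cxcl1 alone changed, and it fell. These 4 of 30 tested members, or 13.3%, stand beside 2.86% of all tested genes, 0.975% called higher and 1.88% called lower. The median log2 fold change, high-fat minus normal diet, was -0.42 over the tested receptors, -0.10 over the tested ligands and -0.02 over all tested genes. Of the receptors, 4 of 14 had a positive and 10 a negative fold change, and the ligands were split 8 and 8. With quantile normalization the receptor split was 5 and 9 and the ligand split 7 and 9. In voom, the version of limma for counts, on recovered reads, with 17 of each kind tested, the receptors were split 8 and 9 and the ligands 10 and 7, and the median of all genes was 0.17. With no filter on low values, all 24 receptors were split 12 and 12 (median 0) and all 31 ligands 23 and 8 (median 0.16), beside a median of 0.05 over all genes. With no filter on low values, or without the trend and robust options of limma, Xcr1 alone of the 4 passed: the adjusted p of Cxcr6 was then 0.0803 or 0.0596, that of Ccr1 0.116 or 0.0678 and that of Cxcl1 0.092 or 0.0602 (limma).

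**Figure D1:**
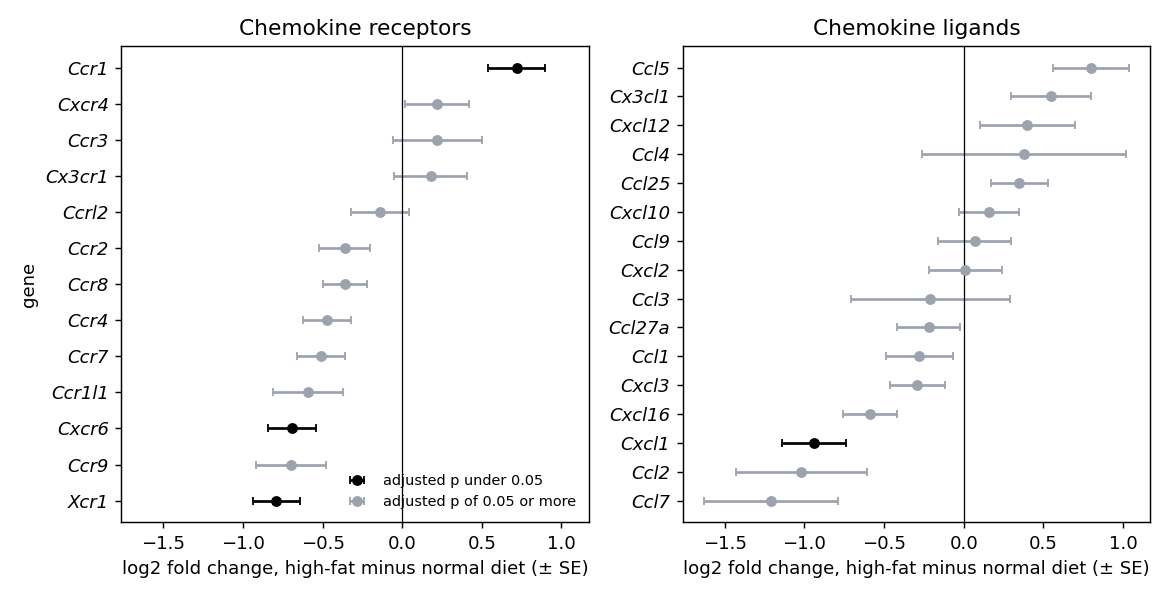
Log2 fold change, high-fat minus normal diet, of the tested receptors (left) and ligands (right) the text names, with bars of 1 standard error from limma, 4 libraries per diet. The calls, in black, are Ccr1 above 0 and Xcr1, Cxcr6 and Cxcl1 below it, and Ccl7, at -1.21, and Ccl2, at -1.02, lie lowest with wider bars.

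The receptor message was dominated by a few genes. Ccr8, the receptor for Ccl1, had the highest level and ranked 28 of 11483 tested genes by mean FPKM. It stood at 2127, 1657, 1850 and 2121 FPKM in H1 to H4, against 2521, 2635, 2417 and 2345 FPKM in N1 to N4. All high-fat libraries lay below all normal-diet libraries. The log2 fold change was -0.36 (SE 0.14, 95% interval -0.65 to -0.07), which did not pass the adjustment (limma, adjusted p = 0.175).

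Cxcr6, the receptor for the membrane-bound chemokine Cxcl16, came next and ranked 56. It stood at 1146, 858, 933 and 1147 FPKM in H1 to H4, against 1724, 1937, 1482 and 1451 FPKM in N1 to N4, again with no overlap. Between the 2 genes, the lowest Ccr8 level of each diet lay above the highest Cxcr6 level of that diet. Cxcr6 fell by 0.69 on the log2 scale, to 0.619 of the normal-diet level on that scale (SE 0.15, limma, adjusted p = 0.0262). Without H3, H4, N1 or N2 the fold change was -0.65, -0.75, -0.67 or -0.61 and the adjusted p 0.101, 0.0536, 0.0806 or 0.0792 (limma), past the threshold in none of these, nor with H2 and N2 both left out (-0.53, adjusted p = 0.0599). Cxcr6 lies at chr9:123806475-123811760 (mm10), within the span of Fyco1 on the other strand, and these libraries do not mark the strand. Fyco1 reached 7.82 to 10.4 FPKM in the high-fat libraries and 11.01 to 14.7 FPKM in the normal-diet libraries, far under Cxcr6.

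Ccr2, the receptor for Ccl2 and Ccl7, ranked 200. It stood at 450, 342, 401 and 423 FPKM in H1 to H4, against 421, 679, 492 and 503 FPKM in N1 to N4, and N1 lay within the high-fat range. Its log2 fold change was -0.36 (SE 0.16, limma, adjusted p = 0.265). Ccrl2, a receptor-like protein that presents the chemoattractant chemerin and does not signal for migration, stood at 162, 93.1, 111 and 128 FPKM on the high-fat diet and at 154, 135, 103 and 149 FPKM on the normal diet, and the libraries overlapped.

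Scaled to library depth, the 24 receptors together took 5111 to 6046 RPM of all recovered reads in the high-fat libraries and 6379 to 7786 RPM in the normal-diet libraries. Ccr8 made up 35.0% to 38.6% of the receptor reads with high-fat feeding and 33.7% to 35.1% without it. Cxcr6 made up 30.2% to 31.1% and 34.4% to 39.5% in the same order. The receptor total was therefore lower in every high-fat library, and the share of Cxcr6 within it was lower as well. The recovered reads of Ccrl2 and Ccr7, which are part of this total, could be too high. The 31 ligands took 701 to 975 RPM in the high-fat libraries and 755 to 970 RPM in the normal-diet libraries, which overlap.

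**Figure D2:**
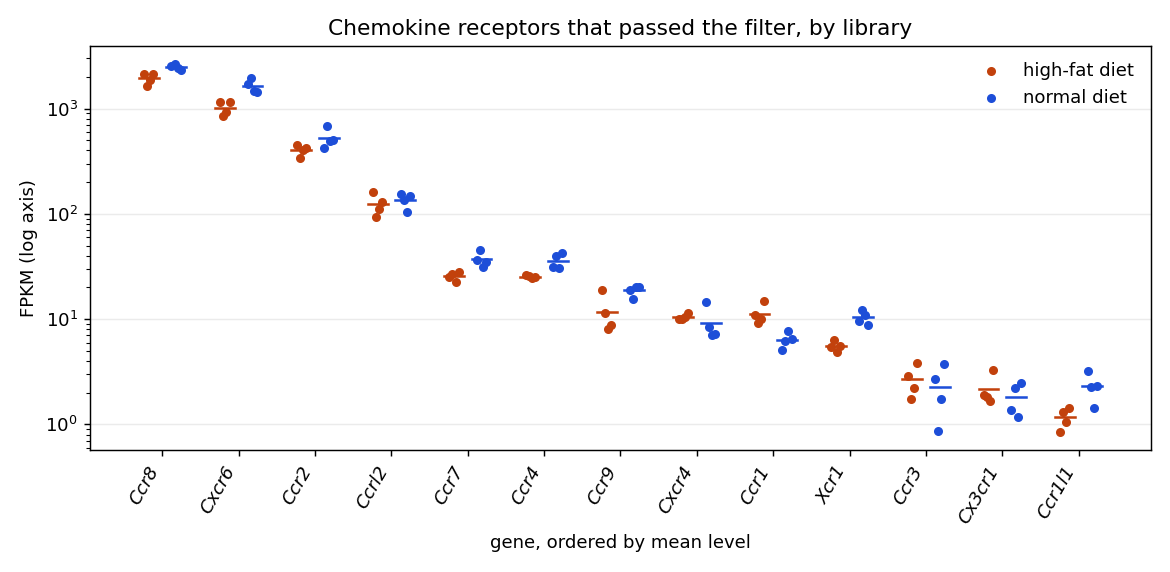
FPKM (log axis) of the tested receptors the text names in each library, high-fat diet to the left of normal diet within each gene, with a line at each mean. Ccr8, Cxcr6, Ccr2 and Ccrl2 stand at 93.1 FPKM or more in every library, and the other receptors at 45.3 FPKM or less.

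Xcr1, the receptor for Xcl1, best known from cross-presenting dendritic cells, fell. It stood at 5.42, 6.33, 4.92 and 5.54 FPKM in H1 to H4, against 9.57, 12.2, 11 and 8.79 FPKM in N1 to N4. The highest high-fat library lay below the lowest normal-diet library. This was a log2 fold change of -0.79 (SE 0.15, limma, adjusted p = 0.013), a ratio of 0.577 on the log2(FPKM + 1) scale. It passed in 17 of the 18 other settings, and without H3 it was -0.75 with adjusted p = 0.0561 (limma). The 8 listed dendritic cell markers, Xcr1 among them, summed to 30.8 to 46.0 FPKM in the high-fat libraries and 73.1 to 113.6 FPKM in the normal-diet libraries. Most of that sum was Zbtb46, which stood at 24.1 to 35.4 FPKM in the high-fat libraries and at 63.0 to 99.9 FPKM in the normal-diet libraries (log2 fold change -1.34, limma, adjusted p = 0.00212). Flt3, Itgax, Cd209a, Siglech and Batf3 reached at most 1.94 FPKM in any library and Clec9a at most 0.0463 FPKM. Each of these overlapped between the diets, so the lower sum reflects Zbtb46 and Xcr1 itself. The part of dendritic cell RNA in the Xcr1 difference was not tested.

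Ccr1, a receptor for Ccl3, Ccl5 and other inflammatory CC chemokines, rose. It stood at 11, 9.24, 9.99 and 14.8 FPKM in H1 to H4, against 5.10, 6.15, 7.76 and 6.55 FPKM in N1 to N4. All high-fat libraries lay above all normal-diet libraries. This was a log2 fold change of 0.72 (SE 0.18, limma, adjusted p = 0.0394), a ratio of 1.65 on the same scale. The call was lost in limma without H1 (0.72, adjusted p = 0.0851), H3 (0.77, 0.0825), H4 (0.59, 0.125), N1 (0.63, 0.109), N2 (0.71, 0.101) or N4 (0.74, 0.0661). Ccr1 is also made by macrophages, monocytes and mast cells. The 12 macrophage and monocyte markers summed to 12.4 to 14.8 FPKM in the high-fat libraries and 9.46 to 11.9 FPKM in the normal-diet libraries, with no overlap. Most of that sum was Lyz2, Cd68 and Cd14, each of which overlapped between the diets, Cd68 at 2.43 to 3.38 FPKM and 1.45 to 4.28 FPKM. Csf1r stood at 0.268 to 1.02 FPKM and 0.0633 to 0.344 FPKM, C1qb at 0.430 to 1.63 FPKM and 0 throughout, and Adgre1 at 0.0952 to 0.797 FPKM and 0.984 to 1.80 FPKM, in the same order. Their part in the difference was not tested. With the mean of the mast cell and basophil markers as a covariate, which was added after the data were seen, Ccr1 remained called at 0.79 (limma, adjusted p = 0.0107). That setting raised the calls over all tested genes from 328 to 630. The part of mast cell RNA in Ccr1 was not tested.

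The 3 called receptors are neighbours. On chromosome 9 between 123.68 and 124.1 Mb (mm10) the genes start in the order Ccr9, Cxcr6, Xcr1, Ccr1, Ccr1l1, Ccr3 and Ccr2. Their log2 fold changes in that order were -0.70, -0.69, -0.79, 0.72, -0.59, 0.22 and -0.36. Ccr1 thus stood above 0 between neighbours below 0. The 250 bases before the RefSeq start of the called receptors are shown because the genes adjoin and moved in different directions. Coordinates are GRCm38.p6, the sequences are read 5′ to 3′ on the strand of the gene, and capitals mark TATAAA or its reverse complement, present in Xcr1 alone of the 3, 160 bases before the start.
Cxcr6, chr9:123806227-123806476, plus strand: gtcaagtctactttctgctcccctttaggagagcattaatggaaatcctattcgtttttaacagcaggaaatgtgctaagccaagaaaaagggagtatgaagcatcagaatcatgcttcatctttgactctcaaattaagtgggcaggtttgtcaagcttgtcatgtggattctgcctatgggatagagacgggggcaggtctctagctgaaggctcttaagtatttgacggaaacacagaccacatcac
Xcr1, chr9:123862030-123862279, minus strand: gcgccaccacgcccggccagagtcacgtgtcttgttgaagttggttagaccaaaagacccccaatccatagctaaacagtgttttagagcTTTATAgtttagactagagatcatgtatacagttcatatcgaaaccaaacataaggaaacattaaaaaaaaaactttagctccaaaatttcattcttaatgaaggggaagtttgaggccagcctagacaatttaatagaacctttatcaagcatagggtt
Ccr1, chr9:123968693-123968942, minus strand: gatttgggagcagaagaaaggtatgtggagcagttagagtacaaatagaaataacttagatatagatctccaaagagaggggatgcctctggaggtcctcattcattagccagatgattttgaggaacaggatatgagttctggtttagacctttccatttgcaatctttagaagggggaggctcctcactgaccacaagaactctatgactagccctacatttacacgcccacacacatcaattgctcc

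RefSeq windows were found for 41 of the 55 members, 12 of the tested receptors and 11 of the tested ligands among them. These 41 members had 47 windows. A member counted as holding a motif if any of its windows did, whereas the shares over all mouse windows count single windows. Searched on both strands, TATAAA lay in 12.4% of the 32851 mouse windows, GGGANNTTC (of the kB type, where N is any base) in 3.23%, TGANTCA (of the AP-1 type) in 6.75% and AGATAA (of the GATA type) in 9.99%. Of the 12 tested receptors with a window, 3 held TATAAA, 1 held GGGANNTTC, 2 held TGANTCA and 4 held AGATAA. The windows with AGATAA or its reverse complement were those of Ccr8, Ccr2, Ccr3 and Ccrl2. GGGANNTTC lay in that of Ccr3. None of the 4 motifs lay in these 250 bases of Cxcr6 or Ccr1.

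**Figure D3:**
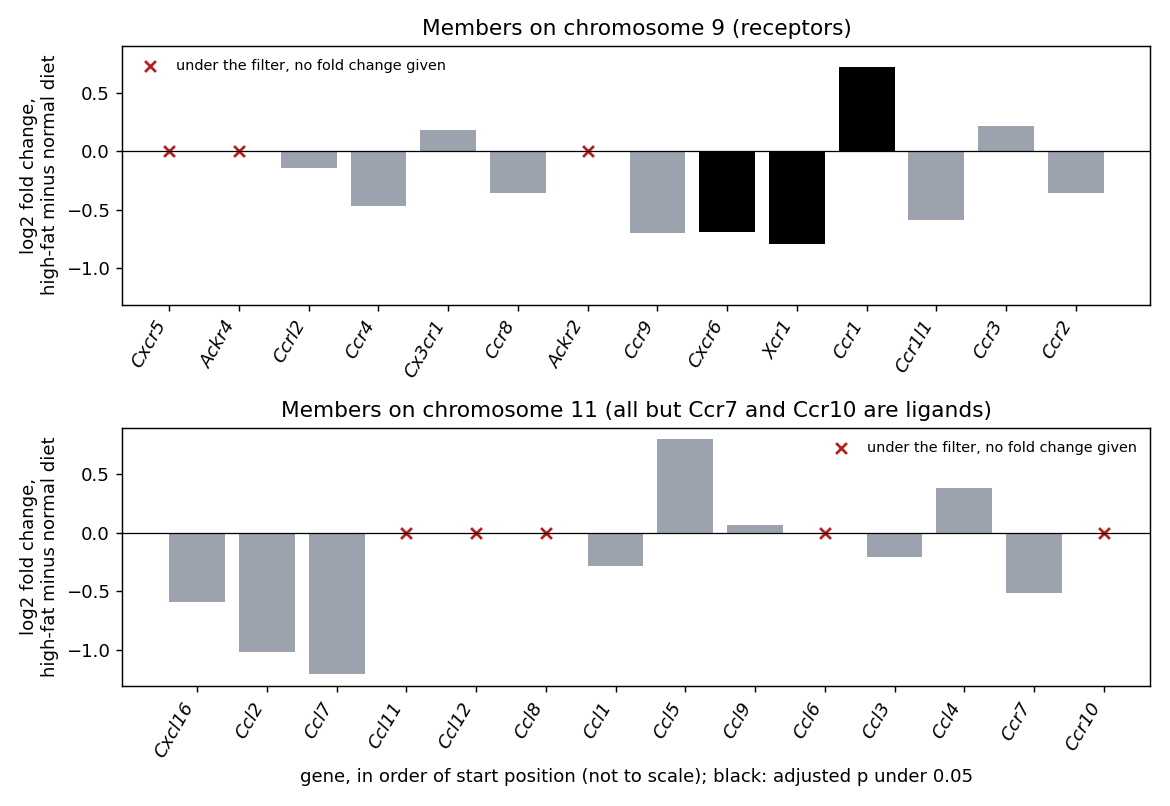
Log2 fold change, high-fat minus normal diet, of members the text names on chromosome 9 (above) and chromosome 11 (below), in order of their starts and not to scale. Black bars passed an adjusted p of 0.05 and crosses mark members under the filter; Ccr1 stands at 0.72 beside Cxcr6 and Xcr1 at -0.69 and -0.79.

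The remaining cluster receptors did not pass. Ccr9, the receptor for the gut and thymus chemokine Ccl25, stood at 18.8, 11.4, 7.98 and 8.74 FPKM on the high-fat diet and at 18.8, 15.7, 20.3 and 20.2 FPKM on the normal diet. H1 lay within the normal-diet range. The log2 fold change of Ccr9, -0.70 (limma, adjusted p = 0.0989), became -0.94 without H1, and then passed (limma, adjusted p = 0.0179). The annotated span of Ccr9 holds Lztfl1 on the other strand and Gm17200 on the same strand, among others. Part of the Ccr9 reads could belong to these genes. Lztfl1 stood at 8.998 to 14.169 FPKM in the high-fat libraries and 12.224 to 16.844 FPKM in the normal-diet libraries. Gm17200 was deposited with values below 0 in every library. Ccr1l1, a Ccr1-like gene known in rodents, stood at 0.854 to 1.42 FPKM and 1.44 to 3.20 FPKM without overlap (limma, adjusted p = 0.169). Ccr3, the eotaxin receptor, stood at 1.74 to 3.87 FPKM and 0.866 to 3.76 FPKM, each pair with the high-fat diet first. Genes of this cluster, Ccr1, Ccr1l1 and Ccr2 included, are alike over part of their length, so reads could have been split between them.

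Ccr4 and Ccr7 lie elsewhere and did not overlap between the diets, yet missed the threshold. Ccr4, the receptor for Ccl17 and Ccl22, stood at 26.2, 25.9, 24.6 and 24.9 FPKM in H1 to H4, against 31.4, 40.0, 30.4 and 42.1 FPKM in N1 to N4. Its log2 fold change was -0.47 (SE 0.15, limma, adjusted p = 0.104). Ccr7, the receptor that leads lymphocytes to lymph nodes, stood at 25.4, 26.9, 22.5 and 27.8 FPKM in H1 to H4, against 36.3, 45.3, 31.3 and 35.2 FPKM in N1 to N4. Its log2 fold change was -0.51 (SE 0.15, limma, adjusted p = 0.0854). In all, 1 tested receptor was higher without overlap and 6 were lower, 7 of 14, beside 4.31% higher and 6.76% lower among all tested genes. Cxcr4, the receptor for Cxcl12, stood at 10.03 to 11.4 FPKM and 7.04 to 14.5 FPKM, and Cx3cr1, the fractalkine receptor, at 1.67 to 3.31 FPKM and 1.17 to 2.46 FPKM. The annotated span of Cx3cr1 holds several other genes, Csrnp1 at 434 to 601 FPKM in the high-fat libraries and 491 to 845 FPKM in the normal-diet libraries among them, so its low level is uncertain.

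T cells share many of these receptors, Ccr8, Ccr4 and Cxcr6 on regulatory T cells among them. Foxp3, their defining factor, stood at 5.35 to 16.8 FPKM in the high-fat libraries and at 1.45 to 11.5 FPKM in the normal-diet libraries. Cd3e stood at 7.33 to 15.1 FPKM and 2.49 to 11.6 FPKM in the same order. Both ranges overlapped between the diets and reached higher in the high-fat libraries. The listed T cell markers did not all do so. Cd3d (4.48 to 10.1 FPKM and 1.17 to 10.95 FPKM), Cd5 (3.01 to 15.3 FPKM and 1.60 to 15.8 FPKM), Lat and Cd8a reached higher in the normal-diet libraries. The rest of that list reached higher in the high-fat libraries, and all of it overlapped between the diets. The part of T cell RNA in the receptor levels was not tested.

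The other 10 receptors were under the filter. Ackr3, an atypical receptor that removes Cxcl12, had 22, 21, 27 and 46 reads in H1 to H4, against 3, 0, 4 and 4 reads in N1 to N4. Its level was 0.636 to 1.33 FPKM and 0 to 0.131 FPKM. With no filter on low values its log2 fold change was 0.84 (limma, adjusted p = 0.0725), and voom on the recovered reads gave 3.64 (limma, adjusted p = 0.0144). Ccr6, the receptor for Ccl20, had 20, 8, 7 and 11 reads on the high-fat diet and 2, 1, 1 and 2 reads on the normal diet. Ackr1, the atypical receptor of venules and red cells, had 30, 3, 14 and 11 reads on the high-fat diet and 4, 4, 1 and 6 reads on the normal diet, which overlapped. Of the 9 endothelial markers, 5 (Kdr, Tek, Egfl7, Cdh5 and Esam) were higher in every high-fat library than in every normal-diet library and none was lower, and Kdr stood at 0.694 to 1.82 FPKM and 0.0451 to 0.351 FPKM. The part of endothelial RNA in Ackr3 was not tested.

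Cxcr1 reached 1.35 FPKM in H2 and at most 0.730 FPKM on the normal diet. Cxcr5, the follicle receptor for Cxcl13, reached 1.82 FPKM in H2 and at most 0.433 FPKM on the normal diet. Cxcr3, the receptor for Cxcl9 and Cxcl10 on type 1 lymphocytes, had 27, 22, 4 and 7 reads on the high-fat diet and 1, 0, 0 and 17 reads on the normal diet. Ackr2, Ackr4, Ccr10 and Cxcr2 stayed below 1 FPKM in every library.

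Among the ligands, Cxcl1 fell. Cxcl1 and Cxcl2 attract neutrophils through Cxcr2, which itself reached at most 0.192 FPKM here. Cxcl1 stood at 32.7, 33.9, 18.3 and 25.9 FPKM in H1 to H4, against 69.8, 46.3, 42.3 and 55.5 FPKM in N1 to N4, with no overlap. The log2 fold change was -0.94 (SE 0.20, limma, adjusted p = 0.0234), a ratio of 0.522 on the log2(FPKM + 1) scale. The call was lost in limma without H3 (-0.76, adjusted p = 0.0825), H4 (-0.92, 0.0762), N1 (-0.80, 0.0773), N2 (-1.0, 0.0532) or N4 (-0.91, 0.0581), and under quantile normalization (-0.84, 0.0737).

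Its close relatives on chromosome 5 did not pass. Cxcl2, at 387, 207, 259 and 282 FPKM on the high-fat diet and 396, 224, 205 and 312 FPKM on the normal diet, had a log2 fold change of 0.01 (95% interval -0.48 to 0.50, limma, adjusted p = 0.986). Cxcl3 stood at 6.65 to 9.69 FPKM and 8.54 to 13.4 FPKM (log2 fold change -0.29, limma, adjusted p = 0.396). Within each diet, Cxcl2 was highest in H1 and N1, and Cxcl3 was so too. The 95% interval of Cxcl1 ran from -1.37 to -0.50, and the difference between Cxcl1 and Cxcl2 was not itself tested.

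GGGANNTTC lay in the RefSeq windows of 5 of the 11 tested ligands that had one, beside 3.23% of all windows, a share counted by window and not by gene. These were Cxcl1, Cxcl2, Cxcl3, Cxcl10 and Ccl1, of which the first 3 are tandem copies and share ancestry. The sequences are shown because a match to this motif, though not the same bases at N or around it, precedes ligands whose fold changes ran from -0.94 to 0.16. They are GRCm38.p6, 5′ to 3′ on the strand of the gene, with the motif on either strand in capitals.
Cxcl1, chr5:90891149-90891208, plus strand: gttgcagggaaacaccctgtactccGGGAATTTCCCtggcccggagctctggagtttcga
Cxcl2, chr5:90903777-90903836, plus strand: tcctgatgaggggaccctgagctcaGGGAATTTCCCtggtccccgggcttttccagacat
Cxcl3, chr5:90786003-90786062, plus strand: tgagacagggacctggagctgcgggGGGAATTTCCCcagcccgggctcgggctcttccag
Cxcl10, chr5:92349015-92349074, minus strand: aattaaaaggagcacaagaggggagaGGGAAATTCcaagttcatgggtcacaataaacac
Ccl1, chr11:82179974-82180033, minus strand: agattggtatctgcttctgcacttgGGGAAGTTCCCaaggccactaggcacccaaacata
The capitals begin 71, 97, 73, 159 and 196 bases before the start of Cxcl1, Cxcl2, Cxcl3, Cxcl10 and Ccl1. A match to these letters is a description and not a measured binding site.

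Ccl1, the ligand of Ccr8, was the most abundant ligand. It stood at 696, 403, 404 and 381 FPKM in H1 to H4, against 537, 740, 446 and 529 FPKM in N1 to N4. H1 was far above the other high-fat libraries and within the normal-diet range. Its log2 fold change was -0.28 (95% interval -0.72 to 0.16, limma, adjusted p = 0.519). By mean level the ligands ran Ccl1, Cxcl2, Ccl7, Ccl2, Cxcl10, Cxcl1, Ccl4 and Ccl5. The ranges of Ccl1 and Cxcl2 met over the 8 libraries, at 381 to 740 FPKM and 205 to 396 FPKM, as did those of Ccl2 and Cxcl10.

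**Figure D4:**
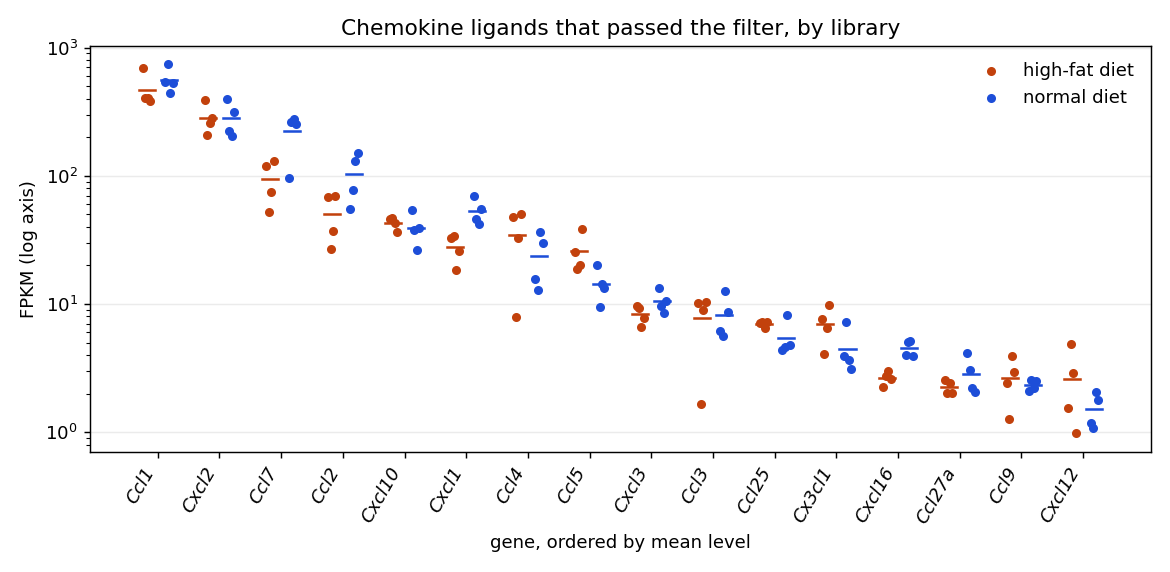
FPKM (log axis) of the 16 tested ligands in each library, high-fat diet to the left of normal diet within each gene, with a line at each mean. Cxcl1 and Cxcl16 do not overlap between the diets, and Ccl3 and Ccl4 each hold 1 low high-fat library, H2.

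Ccl7 and Ccl2, adjoining genes whose products attract monocytes through Ccr2, had the most negative fold changes and missed the threshold. Ccl7 stood at 120, 52.1, 74.6 and 130 FPKM in H1 to H4, against 96.8, 262, 278 and 252 FPKM in N1 to N4, where N1 lay in the high-fat range. The log2 fold change was -1.21 (SE 0.42, limma, adjusted p = 0.177), and without N1 it was -1.57 and passed (limma, adjusted p = 0.0256). Ccl2 lies within the span of Gm17268 on the other strand, so part of its reads could belong to that gene. Gm17268 was deposited with values below 0 in every library, so its level could not be set beside that of Ccl2. Ccl2 stood at 68.1, 26.9, 37.1 and 69.8 FPKM in H1 to H4, against 55.4, 77.3, 131 and 150 FPKM in N1 to N4. Its log2 fold change was -1.02 (SE 0.41, limma, adjusted p = 0.242).

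Mast cells and basophils release these ligands, and their markers varied between libraries. The mean log2(FPKM + 1) of 8 such markers was 8.37, 6.41, 7.52 and 8.26 in H1 to H4, against 7.35, 7.78, 8.17 and 8.24 in N1 to N4. The lowest Ccl2, Ccl7, Ccl3 and Ccl4 of all 8 libraries were in H2, the library with the fewest marker transcripts. With this mean as a covariate, a setting chosen after the data were seen, Ccl7 passed at -1.01 (limma, adjusted p = 0.0171) and Ccl2 at -0.81 (limma, adjusted p = 0.0158). Whether the transcripts of these 4 ligands came from ILC2s or from mast cells and basophils cannot be told apart in these libraries.

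**Figure D5:**
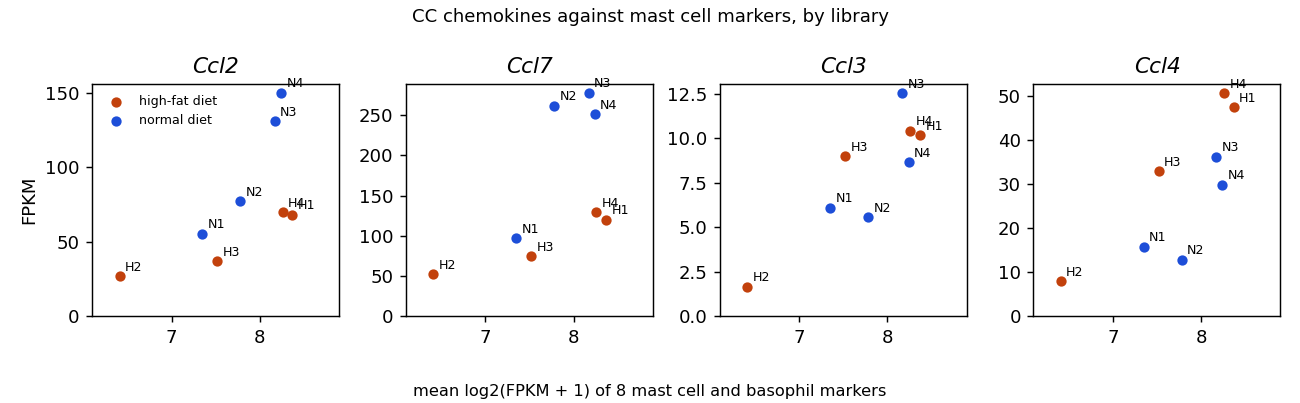
FPKM of Ccl2, Ccl7, Ccl3 and Ccl4 in each library against the mean log2(FPKM + 1) of 8 mast cell and basophil markers, high-fat libraries H1 to H4 and normal-diet libraries N1 to N4. H2 lies lowest on both axes in all 4 panels.

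Ccl3 and Ccl4, neighbouring genes of inflammatory CC chemokines, did not pass, and no test compared them with Ccl2. Ccl4 stood at 47.4, 7.88, 32.9 and 50.6 FPKM in H1 to H4, against 15.8, 12.8, 36.1 and 29.9 FPKM in N1 to N4 (log2 fold change 0.38, SE 0.64, limma, adjusted p = 0.823). With 1 library left out this ran from 0.11, without H4, to 0.95, without H2, and passed in none of these fits. Ccl3 stood at 10.2, 1.67, 8.99 and 10.4 FPKM, against 6.11, 5.57, 12.5 and 8.66 FPKM (log2 fold change -0.21, SE 0.50, limma, adjusted p = 0.877), and its sign turned without H2, at 0.29. Ccl5, another ligand of Ccr1, stood at 25.6, 18.8, 20.2 and 38.3 FPKM in H1 to H4, against 20.1, 9.38, 14.4 and 13.3 FPKM in N1 to N4. Its log2 fold change of 0.80 (SE 0.24, limma, adjusted p = 0.101) passed when a scaling factor that recurs over the genes of the table was divided out (0.74, adjusted p = 0.0404) and in voom (1.0, adjusted p = 0.0187).

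Cxcl16, the ligand of Cxcr6, stood at 2.26, 2.74, 2.99 and 2.59 FPKM in H1 to H4, against 3.98, 5.06, 5.11 and 3.92 FPKM in N1 to N4. Ligand and receptor were thus each lower in every high-fat library. Cxcl16 missed the threshold at -0.59 (SE 0.17, limma, adjusted p = 0.0733) and passed under quantile normalization (limma, adjusted p = 0.0487). Of the tested ligands 2 of 16, Cxcl1 and Cxcl16, were lower without overlap and none was higher, beside 6.76% lower and 4.31% higher among all tested genes.

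Cx3cl1, the membrane-bound fractalkine, stood at 7.66, 4.08, 6.50 and 9.80 FPKM in H1 to H4, against 3.92, 7.18, 3.63 and 3.12 FPKM in N1 to N4 (log2 fold change 0.55, limma, adjusted p = 0.262). With H2 and N2 both left out, a choice made once the data had been seen, it was 0.97 and passed (limma, adjusted p = 0.015). Cxcl10, an interferon-induced ligand of Cxcr3, stood at 36.4 to 46.8 FPKM in the high-fat libraries and 26.2 to 54.2 FPKM in the normal-diet libraries. Ccl25, the ligand of Ccr9, stood at 6.49 to 7.29 FPKM and 4.33 to 8.16 FPKM in the same order. Cxcl12, the stromal ligand of Cxcr4, stood at 0.977 to 4.91 FPKM, highest in H2, and 1.08 to 2.04 FPKM. Ccl27a, a skin chemokine, stood at 2.002 to 2.56 FPKM and 2.04 to 4.11 FPKM, and Ccl9, a rodent ligand of Ccr1, at 1.26 to 3.96 FPKM and 2.08 to 2.55 FPKM. Ccl25 overlaps Elavl1 and Ccl27a overlaps Il11ra1 on the opposite strand, so part of their reads could belong to these.

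Below the filter were 15 ligands. Ccl22, a ligand of Ccr4 from dendritic cells and macrophages, had 7, 9, 12 and 17 reads in H1 to H4, against 0 in all of N1 to N4. With reads pooled per diet and a floor of 3 reads set for the normal diet, the ratio per read sequenced was 16. That ratio takes no account of the spread between libraries and is no firm lower bound. Limma with no filter gave a log2 fold change of 0.52 (adjusted p = 0.0973). Ccl6, a rodent CC chemokine of myeloid cells, had 20, 6, 27 and 48 reads on the high-fat diet and 2, 0, 0 and 9 reads on the normal diet. As FPKM, Ccl6 ran from 0.452 to 2.34 and from 0 to 0.430 in that order, with no overlap, whereas its reads overlapped (6 in H2, 9 in N4). Xcl1, the ligand of Xcr1, had 11, 5, 7 and 4 reads on the high-fat diet and 1, 0, 0 and 3 reads on the normal diet. Xcr1 was lower in every high-fat library and its ligand higher, both at low levels. For Xcl1 the margin was 4 reads in H4 against 3 reads in N4.

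Ccl11, an eotaxin that binds Ccr3, had 25, 0, 13 and 20 reads on the high-fat diet and 1, 3, 0 and 0 reads on the normal diet, and H2 with 0 made the groups overlap. Cxcl9 stood at 5.39 FPKM in H2 and at most at 1.48 FPKM in the other libraries of both diets. Cxcl17 reached 1.11 FPKM in H2, and Ccl24 had 11 reads in N2 and at most 2 in any other library. The other 9, Ccl8, Ccl12, Ccl17, Ccl19, Ccl22, Ccl26, Ccl28, Cxcl5 and Cxcl15, stayed below 1 FPKM.

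Of the 25 members under the filter, 5 were higher on the high-fat diet without overlap in FPKM (Ackr3, Ccr6, Ccl22, Ccl6 and Xcl1) and none was lower. Among all 12624 genes under the filter with a value above 0, 3.35% were higher and 0.309% lower in this way, so low genes as a whole leaned towards the high-fat diet. H2, the shallowest library, had 13663 genes at 1 FPKM or more, against 10763 to 11905 in the others. The part of contaminating RNA in these low members was not tested.

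Downstream of the receptors, 61 of the listed transducers and regulators were tested and 5 passed, beside 2.86% of all tested genes. Of these 5, 2 were higher and 3 lower, and the list had a median log2 fold change of -0.03. The split depended on the scaling, with 5 higher and 0 lower under quantile normalization and 13 higher and 2 lower in voom on recovered reads. Rgs3, which shortens G protein signals, rose to 9.37 ± 1.31 FPKM on the high-fat diet, against 4.71 ± 1.08 FPKM on the normal diet (SD, n = 4 each, log2 fold change 0.87, limma, adjusted p = 0.0137). Rgs16, of the same family, rose to 53.5 ± 11.5 FPKM, against 29.9 ± 6.19 FPKM (0.82, limma, adjusted p = 0.0311). Rap1b, a small GTPase that switches on integrins, fell by 1.03 on the log2 scale to 109 ± 24.0 FPKM, against 228 ± 71.9 FPKM (limma, adjusted p = 0.0264). Jak2, a kinase of cytokine receptors, and Crk, an adaptor in cell migration, fell by 0.65 and 0.62 (limma, adjusted p = 0.0325 and 0.0423). The calls depended on single libraries: over the 8 fits with 1 library left out, Rgs3 passed in 6 (not without H3 or H4), Rgs16 in 3 (H1, H2 or N4 left out), Rap1b in 2 (H2 or N4), and Jak2 and Crk in 1 (H2). Their adjusted p reached at most 0.0588, 0.121, 0.0892, 0.0895 and 0.141. Under quantile normalization Rap1b, Jak2 and Crk did not pass (limma, adjusted p = 0.16, 0.11 and 0.0747). The most abundant were Rgs2, at 4120 ± 674 FPKM and 4170 ± 853 FPKM, Rgs1, at 944 ± 66.3 FPKM and 1220 ± 165 FPKM, and Rac2, at 870 ± 153 FPKM and 1050 ± 114 FPKM, none of which passed.

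Of 27 tested genes of other chemoattractant pathways, 1 passed, a share near the 2.86% of all tested genes. Gpr35, a receptor reported to bind kynurenic acid, fell by 1.25 on the log2 scale to 9.36 ± 1.13 FPKM on the high-fat diet, against 23.8 ± 3.66 FPKM on the normal diet (SD, n = 4 each, SE 0.16, limma, adjusted p = 0.00155). It passed in all 8 fits with 1 library left out. Ltb4r1, the leukotriene B4 receptor, stood at 331 ± 16.4 FPKM and 338 ± 44.1 FPKM, and Mif, a cytokine that binds Cxcr4, at 190 ± 28.0 FPKM and 205 ± 17.0 FPKM. Cmtm6, a membrane protein of the chemokine-like factor family, stood at 134 ± 13.9 FPKM and 223 ± 57.7 FPKM without overlap (-0.70, limma, adjusted p = 0.0521), and passed without N3 (-0.87, adjusted p = 0.0192).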

How the data were processed

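RNA of sorted VAT ILC2s was sequenced in 8 libraries. Per the labels' protocols, Trizol extraction was followed by full-length cDNA synthesis (SMART-Seq HT) and TruePrep libraries, which do not mark the strand. HISAT2, Cufflinks and mm10 are named in the submitters' processing notes, without versions. The authors' deposited values are FPKM per the file headers. Values below 0 occur in 14605 of 39527 genes, which were left out. A factor of 10 sizes, 0.863 to 1.18, is recycled over the genes and shifts log2 differences by -0.08 to 0.09. It was kept, and divided out as an alternative. Whole reads followed for 100% of 24107 genes (relative tolerance 1e-06), and could be too low where reads share a divisor. They could also be too high. The reads of Ccrl2, Ccr7, Ackr2, Cxcl10 and Ccl9 were even numbers in every library. The recovered lengths of Ccrl2, Ccr7 and Ackr2 (3963, 3877 and 4783 bases) exceeded their annotated exon lengths (2598, 1978 and 3127 bases).

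Genes with at least 1 FPKM in at least 4 libraries (11483) were tested on log2(FPKM + 1) with limma 3.58.1 (R 4.3.3), with diet as the only term, eBayes trend and robust, two-sided, Benjamini-Hochberg adjusted at 0.05. Because the deposited values include numbers below 0, they are not plain FPKM throughout, and no count test was the main test. Alternatives were quantile normalization, equal medians, a pseudocount of 0.1, no filter, no trend or robust options, a replicate block, voom on recovered reads (at least 10 in at least 4 libraries) and leaving out each library. Added after seeing the data were leaving out H2 and N2 together and the mast cell marker covariate. The test was run on simulated normal values, drawn independently with the mean and spread of each gene. Such values cannot show how the calls fare where libraries differ in RNA of other cells or come from pools. Members and gene lists were chosen with earlier results of these data known. All tested members but 1, which is not reported here, were named, and of the signalling and chemoattractant lists the called genes and the 3 most expressed. Gene positions come from GENCODE M21 (mm10) and promoter sequences from RefSeq (GRCm38.p6).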

Additional observations from a re-analysis of the deposited data

Results flagged for a closer look

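Over 82 groups of 4 libraries, formed by the tested members and those reaching 1 FPKM in each diet, 9 held a library far from the other 3. For independent, normally distributed values chance alone gives about 1 in 20. These are raw FPKM, some at 0, from genes measured in the same libraries, so that rate need not hold. The measure is the gap to the nearest library as a share of the range of the group. Among high-fat libraries it was 0.927 for Ccl1, highest in H1 at 696 FPKM, 0.846 for Cx3cr1, highest in H4 at 3.31 FPKM, 0.843 for Ccl25, lowest in H3 at 6.49 FPKM, and 0.836 for Ccl3, lowest in H2 at 1.67 FPKM. Among normal-diet libraries it was 1.0 for Ccl24, highest in N2 with the other 3 at 0, 0.933 for Cxcr3, highest in N4 at 17 reads, 0.885 for Ccl25, highest in N3 at 8.16 FPKM, 0.856 for Ackr1, lowest in N3 at 1 read, and 0.853 for Ccl7, lowest in N1 at 96.8 FPKM.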

How the results depend on the processing

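Of all tested genes, 328 passed (112 higher, 216 lower). The count was 130 with no filter, 191 with the replicate block, 571 with the factor divided out, 1404 in voom on the recovered reads (1046 higher, 358 lower), 630 with the mast cell marker covariate, and 129 to 536 with 1 library left out. Voom moved the median of all genes to 0.17, and quantile normalization turned the split to 226 higher and 204 lower. Receptors, 3 in the report, were 1 with no filter, 1 without trend and robust options, 1 with the replicate block and 0 to 3 with 1 library left out. Ligands, 1 in the report, were 0 with no filter, 0 without trend and robust options, 2 with the factor divided out, 2 in voom, 2 without H2 and N2, 3 with the covariate (all lower), and 0 to 1 with 1 library left out. Beside the counts of 0 (limma), the numbers at an unadjusted p under 0.05 were 8 receptors without H3, 10 ligands with no filter, 5 ligands without trend and robust options, 4 to 6 ligands with H3, H4, N2 or N4 left out, 14 signalling genes with no filter and 10 signalling genes without H3 or H4. Signalling genes, 5 in the report, were 0 with no filter, 1 without trend and robust options, 1 with the replicate block, 15 in voom, 8 without H2 and N2, and 0 to 8 with 1 library left out. Other chemoattractant genes, 1 in the report, were 3 under quantile normalization, 3 with equal medians, 3 with the factor divided out, 5 in voom, 2 without H2 and N2, 3 with the covariate, and 1 to 3 with 1 library left out. The median log2 fold change of the 30 members, -0.25, was -0.14 under quantile normalization, -0.06 in voom, -0.11 without H2 and N2, and -0.38 to -0.20 with 1 library left out. Signs turned only for genes that did not pass. With 1 library left out the ranges were for Ccr3 -0.02 to 0.43, Cxcl10 -0.01 to 0.33, Cxcl2 -0.15 to 0.19, Ccl3 -0.40 to 0.29, Ccl9 -0.10 to 0.28, Rgs2 -0.09 to 0.12 and Ltb4r1 -0.07 to 0.06. Under quantile normalization Ccrl2 was 0.01, Ccl9 0.00, Rgs2 0.14, Ltb4r1 0.12 and Mif 0.06. With equal medians Rgs2 was 0.00. With the factor divided out Cxcl2 was -0.06 and Ltb4r1 0.02. In voom Ccrl2 was 0.11, Ccl3 0.08, Rgs2 0.10 and Ltb4r1 0.19. Without H2 and N2, Ccl3 was 0.15, Rgs2 0.04 and Ltb4r1 0.09. With the covariate Ccl3 was 0.04 and Rgs2 0.02. The causes were not tested. Whether replicate numbers pair the libraries is not stated in the labels. Same-numbered libraries correlated at -0.255 to 0.078 and differently numbered ones at -0.201 to 0.222. With 4 libraries per diet these values cannot decide it. The replicate block ended the calls of Ccr1 (limma, adjusted p = 0.0812) and Cxcr6 (limma, adjusted p = 0.0657). Pseudocount 0.1 changed no count of receptor, ligand or chemoattractant calls. Low members with under 10 reads a library give no firm fold change.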
